A study of Mus musculus with 12 samples.

Results

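Promoter methylation was compared between 3 Dnmt3b-induced and 3 control mice in the long fraction of reduced representation bisulfite libraries, the MspI fragments of 120 to 220 nt. These 6 libraries are the long-fragment samples of a series of 12, in which every mouse also gave a library of 40 to 120 nt fragments. The genes described are the 6127 listed in all 6 long-fragment tables, out of 12098 genes listed in any table, and weight is given to the 494 of them (8.06%) that no short-fragment table lists. Those 494 are called long-only genes below.

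All mice were C57BL/6, ate chow and gave epithelial cells isolated from the colon. The induced mice drank 0.5 g/l doxycycline for 3 months, with the water renewed every 3 days, and the control mice drank regular water. The labels do not say which promoter or cell type drives Dnmt3b, whether the control mice carried the inducible construct, or the age and sex of the mice. Doxycycline and Dnmt3b induction cannot be told apart in this design. The values are the mean CpG methylation of a gene over its promoters, given here in percent, and the read depth behind a value is unknown. A gene mean also cannot separate more methylated cells from more methylated CpGs in each cell.

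Dnmt3b is a de novo DNA methyltransferase, an enzyme that places methyl groups on cytosines of CpG sites that carried none. Most promoters with many CpGs are unmethylated in healthy tissue whether or not the gene is active, and dense promoter methylation accompanies stable silencing, as on the inactive X chromosome, at imprinted genes and at germline genes in somatic cells. MspI cuts at CCGG whatever its methylation, so the spacing of CCGG sites decides which fragment size reports on a promoter.

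Whether a gene is listed in the long or in the short fraction depends on that spacing, so the RefSeq promoter windows of 6 long-only genes are printed first. Each runs from 250 bases before to 50 bases after an annotated start in GRCm38.p6, 5′ to 3′ on the strand of the gene. The CCGG sites are in capitals, since they are where the enzyme cuts. These genes were chosen because their windows hold a pair of neighbouring CCGG sites 120 to 220 bases apart (from site start to site start), and because they cover the 3 courses seen in the data. Nkain2, Zbtb8b, Gria2 and Prkcq went from low to high methylation, Taf12 stayed low, and Zfp354b was already methylated in control mice.
Nkain2, chr10:32889866-32890165, minus strand: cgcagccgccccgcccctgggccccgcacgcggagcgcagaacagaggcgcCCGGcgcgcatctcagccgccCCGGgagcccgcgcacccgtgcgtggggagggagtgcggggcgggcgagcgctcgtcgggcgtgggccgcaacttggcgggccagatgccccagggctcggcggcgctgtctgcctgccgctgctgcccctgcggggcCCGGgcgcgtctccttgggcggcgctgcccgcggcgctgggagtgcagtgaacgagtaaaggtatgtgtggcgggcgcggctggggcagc
Zbtb8b, chr4:129440769-129441068, minus strand: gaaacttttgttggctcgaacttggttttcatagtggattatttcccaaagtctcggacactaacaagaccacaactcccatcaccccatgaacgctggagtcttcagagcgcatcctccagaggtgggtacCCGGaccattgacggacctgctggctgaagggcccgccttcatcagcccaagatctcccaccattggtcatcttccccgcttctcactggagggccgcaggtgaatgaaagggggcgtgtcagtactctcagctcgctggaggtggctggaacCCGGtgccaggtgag
Gria2, chr3:80802786-80803085, minus strand: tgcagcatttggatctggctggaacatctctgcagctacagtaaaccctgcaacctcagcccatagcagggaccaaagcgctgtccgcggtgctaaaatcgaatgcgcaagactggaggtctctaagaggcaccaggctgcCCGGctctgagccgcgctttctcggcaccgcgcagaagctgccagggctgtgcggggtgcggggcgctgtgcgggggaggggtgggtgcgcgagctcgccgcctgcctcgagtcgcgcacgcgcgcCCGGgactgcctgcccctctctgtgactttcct
Prkcq, chr2:11172132-11172431, plus strand: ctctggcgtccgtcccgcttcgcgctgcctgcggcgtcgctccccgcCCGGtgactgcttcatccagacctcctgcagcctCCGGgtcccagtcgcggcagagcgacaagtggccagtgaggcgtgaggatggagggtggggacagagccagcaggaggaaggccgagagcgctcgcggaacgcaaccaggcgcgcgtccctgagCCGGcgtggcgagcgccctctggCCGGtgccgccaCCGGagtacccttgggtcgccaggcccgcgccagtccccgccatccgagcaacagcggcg
Taf12, chr4:132274125-132274424, plus strand: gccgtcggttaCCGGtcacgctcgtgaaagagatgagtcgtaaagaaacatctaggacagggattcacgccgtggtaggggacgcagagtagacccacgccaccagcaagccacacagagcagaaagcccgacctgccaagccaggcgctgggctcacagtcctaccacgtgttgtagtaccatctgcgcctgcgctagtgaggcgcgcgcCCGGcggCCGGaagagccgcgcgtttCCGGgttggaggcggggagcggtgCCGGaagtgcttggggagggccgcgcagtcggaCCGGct
Zfp354b, chr11:50931586-50931885, minus strand: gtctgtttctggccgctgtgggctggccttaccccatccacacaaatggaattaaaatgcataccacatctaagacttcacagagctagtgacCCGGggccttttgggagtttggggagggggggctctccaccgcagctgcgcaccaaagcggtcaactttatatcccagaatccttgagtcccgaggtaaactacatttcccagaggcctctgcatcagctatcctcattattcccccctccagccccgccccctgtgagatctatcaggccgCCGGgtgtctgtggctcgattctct

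The pair of sites was 138 bases apart at Nkain2, 153 at Zbtb8b, 126 at Gria2, 124 at Prkcq, 200 at Taf12 and 182 at Zfp354b. Of these windows Nkain2 had the most CpG sites, 43, and Zfp354b the fewest, 10. At least 1 CCGG was present in 52.8% of all 32851 RefSeq windows of this length, and a neighbouring pair 120 to 220 bases apart in 8.68%. Such a pair was found in 21.4% of the long-only genes with a window, averaged over a gene's windows, so the 6 printed windows are not typical of long-only genes. Over all tested genes with a window the share was 25.2%, so the pair is not particular to long-only genes. CCGG reads the same on both strands. Only 384 of the 494 long-only genes (77.7%) and 78.4% of all tested genes had a window, under the 80% set for such a check. A comparison of sequence content between long-only and other genes is therefore void, and nothing is concluded from the shares above. The window the authors averaged is not given in the sources used here and may differ from these.

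The 6 tables listed 7278 to 8108 genes each, and 663 to 848 of these were in no short-fragment table. Over all long-fragment libraries 985 genes were in no short table, and 494 of them were complete. Library 2 of the control mice stood apart on the X chromosome. Over the 136 tested X-linked genes its median level was 0%, against 36.1% and 36.3% in control mice 1 and 3 and 51.9% to 63.4% in the induced mice. Results on X-linked genes are therefore given separately, with and without that library. Of 15 markers of colon epithelium 9 were tested, and 8 of these had means under 10% in both groups. The remaining marker, Krt18, lay at 20.6% to 26.1% in control and 26.2% to 34.4% in induced mice and did not pass (adjusted p = 0.163). The levels of all 9 summed to 23.0 to 28.9 points in control and 30.8 to 40.6 points in induced mice, most of it from Krt18. Krt8, the keratin of simple epithelia and the only long-only marker, was at 0.12%, 0% and 0% in the control animals, then 3.86%, 0% and 0% in the induced ones, and Cldn7 was at 0% in all 6 libraries. Of short lists of 10 leukocyte and 13 stromal, muscle and endothelial defining markers, Coro1a and Des alone were tested. On wider lists 5 of 9 tested immune cell markers (55.6%) and 10 of 11 tested stromal, muscle and endothelial markers (90.9%) rose. Their median differences were 21.2 and 66.5 points. On a wider colon epithelium list 5 of 31 tested genes rose (16.1%), with a median difference of 0.35 points. Those 5 included Chga, with means of 5.85% in control and 74.7% in induced mice, and Neurog3, with 6.96% and 55.0%. Of all tested genes 23.2% rose. Coro1a, a leukocyte actin regulator, lay at 8.05% to 17.9% in control and 68.9% to 82.3% in induced mice, and Des, the muscle filament desmin, at 1.89% to 5.46% and 36.2% to 81.0%. Both rose (adjusted p = 0.00215 and 0.0415), Des in just 1 of 6 fits without a library, that without induced mouse 1 (otherwise 0.113 to 0.142). Methylation of a marker does not count cells, and the part of other cell types in the results was not tested.

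Long-only genes were more methylated in induced than in control mice. Their mean level was 14.4%, 14.2% and 15.3% in control mice 1, 2 and 3 and 28.3%, 28.7% and 30.9% in induced mice 1, 2 and 3. Every induced mouse lay above every control mouse. Of the 494 genes, 107 rose (21.7%) and 0 fell at an adjusted p under 0.05 in limma, a linear model with moderated variances adjusted over all 6127 genes. The same test called 23.2% of all tested genes higher and 0.0163% lower, so the share among long-only genes was near the background. All 3 induced values were above all 3 control values for 199 long-only genes (40.3%), beside 38.2% of all tested genes. They included each of the 107 that rose, so separate groups at such a gene add nothing to its call. The median difference was 2.81 percentage points, and 0.94 points over all tested genes. Among the 107 that rose, the median rise was 47.8 points, with 52 rising by over 50 points and 9 by under 10.

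**Figure D1:**
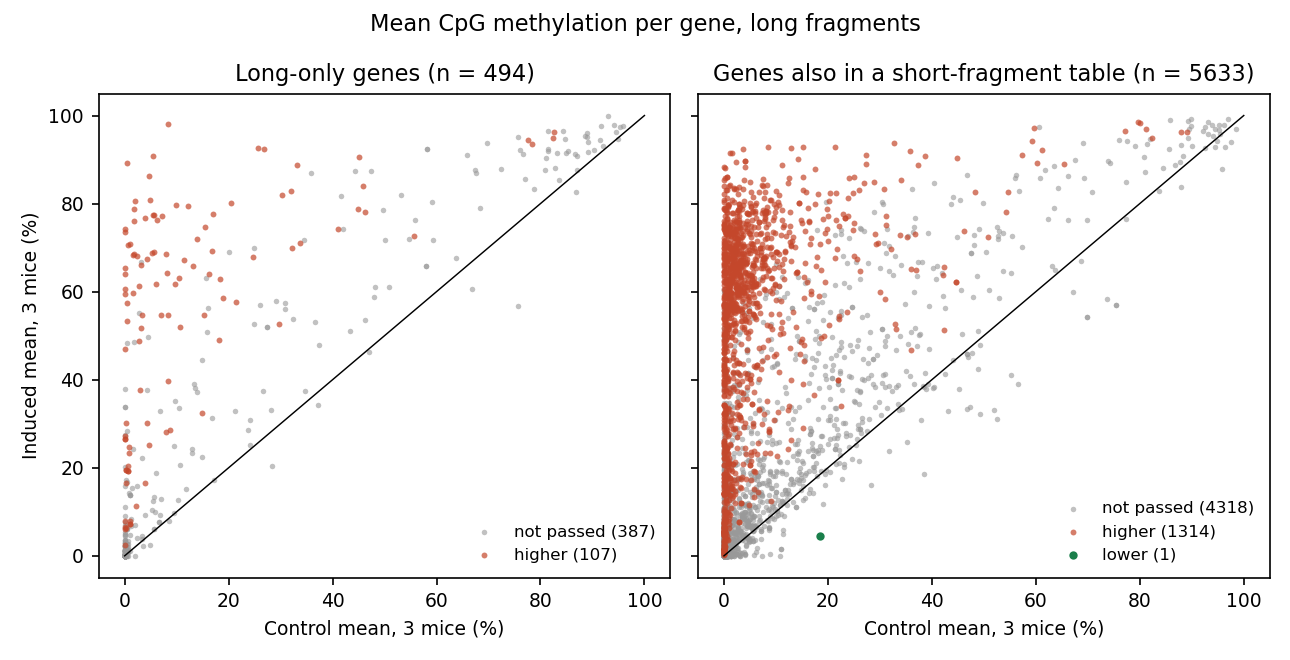
Mean methylation of each gene over 3 induced mice (y axis, %) against its mean over 3 control mice (x axis, %), for the 494 long-only genes (left) and the 5633 tested genes also listed in a short-fragment table (right). Each point is a gene, red where it rose and green where it fell at adjusted p under 0.05 (limma), and the line marks equal levels. Among long-only genes 107 rose and 0 fell; in the right panel 1314 rose and 1 fell.

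Long-only genes spanned the whole range of levels before induction. In control mice 60 of them (12.2%) had a mean of 50% or more and 81 (16.4%) lay between 10% and 50%, while 353 (71.5%) were under 10%. Among the 5633 tested genes also listed in a short-fragment table, the 3 shares were 1.83%, 9.52% and 88.7%. The mean control level was 14.6% ± 0.597 for long-only genes and 4.39% ± 0.377 for the others (SD, n = 3 mice each), and the induced means were 29.3% ± 1.44 and 18.5% ± 1.61. Values of the 2 gene sets come from the same libraries and were set side by side without a test. On the long-only genes alone, the share above 50% in a mouse went from 12.6% ± 0.309 in control to 30.8% ± 2.03 in induced mice.

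**Figure D2:**
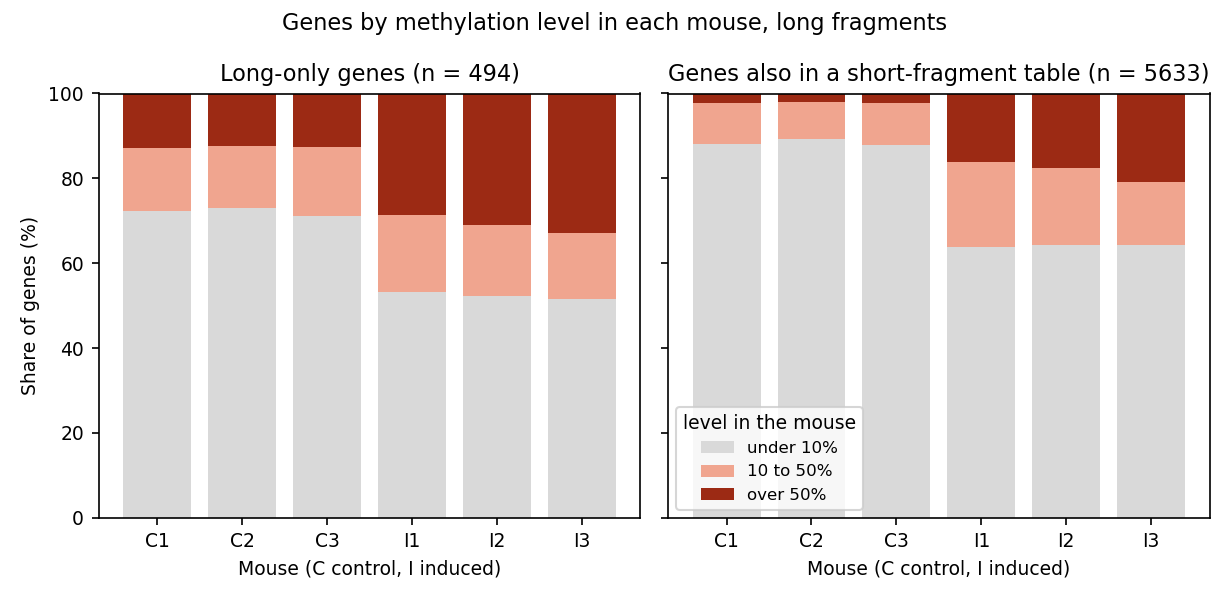
Share of genes (y axis, %) with a level under 10% (grey), of 10 to 50% (light red) and over 50% (dark red) in each control (C1 to C3) and induced (I1 to I3) mouse, for long-only genes (left) and genes also listed in a short-fragment table (right). Long-only genes over 50% made up 12.4% to 12.96% in control and 28.7% to 32.8% in induced mice.

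The 3 classes of control level were then followed into the induced mice. Of the 353 genes under 10% in control mice, 257 (72.8%) were still under 10% in induced mice, 53 lay between 10% and 50%, and 43 (12.2%) reached 50% or more. Of the 81 genes between 10% and 50%, 31 rose (38.3%) and 55 (67.9%) reached 50% or more. X-linked genes made up 17 of the 81, and without them 28 of 64 rose (43.8%) and 40 (62.5%) reached 50% or more. All 60 genes at or above 50% stayed there, and 5 of them rose. No long-only gene moved to a lower class. Among the tested genes also in a short table, 22.7% of those under 10% and 30.6% of those between 10% and 50% rose, and 15.0% and 45.2% reached 50% or more. These shares describe the genes and were not tested against each other.

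The largest rises among long-only genes started from control means under 10%. Of the 107 genes that rose, 9 had an induced mean above 90%. Among the 12 largest rises were Dync2h1, a motor of cilia, and Ptger1 (Gene ID 19216), a receptor for prostaglandin E2. Ptger1 was at 5.21%, 1.59% and 9.34% in the control animals, then 100%, 79.6% and 92.8% in the induced ones (adjusted p = 0.00164). Tnfrsf8 (21941), the lymphocyte receptor CD30, was at 0%, 2.78% and 11.2% in the control animals, then 85.8%, 78.6% and 94.2% in the induced ones (adjusted p = 0.00139). Nkain2 (432450), a membrane protein that binds the sodium pump, was at 0%, 0% and 5.54% and then 84.0%, 80.9% and 71.6% (adjusted p = 0.000865). In the 3 genes with values given here the groups lay far apart, and the lowest induced mouse was above 70%.

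Genes with other roles had rises of similar size. Ctgf (14219), a secreted matrix-associated growth factor, was at 0%, 0% and 0.18% in the control animals, then 69.5%, 74.7% and 78.5% in the induced ones (adjusted p = 0.000359). Mcf2l (17207), an exchange factor for small GTPases, was at 0% in each control mouse and at 71.9%, 67.3% and 81.6% in the induced mice (adjusted p = 0.001003). Nova2 (384569), a neuronal splicing regulator, was at 3.62%, 7.86% and 5.06% and then 77.8%, 72.2% and 82.0% (adjusted p = 0.000538). No induced value of these 3 genes came near a control value. Fbxo39, 2900011O08Rik and 1700003F12Rik rose by 75.8, 78.6 and 74.2 points. Lrrc3b, also among the 12 largest rises, was uneven: 4.59%, 0.40% and 6.49% in the control animals, then 46.3%, 92.4% and 91.4% in the induced ones, with induced mouse 1 far below the others (adjusted p = 0.0282). Its call was lost without any control library or without induced mouse 2 or 3 (adjusted p = 0.0837 to 0.109), and without induced mouse 1 it was 0.000699.

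**Figure D3:**
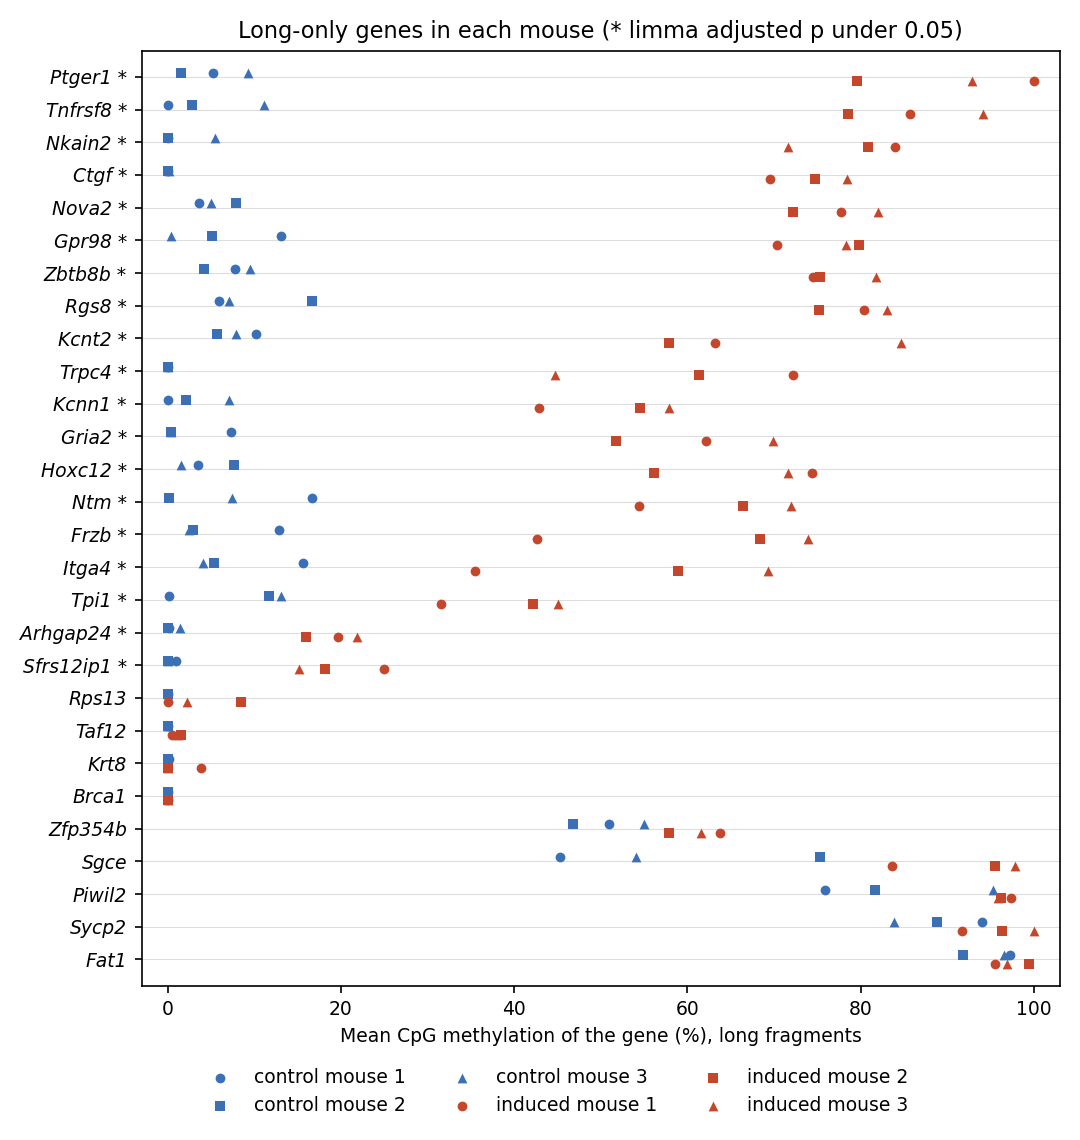
Mean CpG methylation (x axis, %) of 28 long-only genes (rows) in each mouse, control in blue and induced in red, with the symbol giving the number of the mouse and * marking genes that rose. Ptger1 to Frzb show control values under 17% and induced values above 42%. Itga4 to Brca1 show smaller rises or none, and the last rows are genes already methylated in control mice.

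Long-only genes of ion channels, receptors and synapses rose in part. Of 72 tested ion channel genes 48 rose (66.7%, beside 23.2% of all genes), and of the 8 long-only ones 5 rose, with a median difference of 43.3 points. Trpc4, a cation channel, was at 0% in each control mouse and 72.2%, 61.4% and 44.7% in the induced mice (adjusted p = 0.00761). Kcnt2, a sodium-activated potassium channel, was at 10.2%, 5.68% and 7.94% and then 63.2%, 57.9% and 84.6% (adjusted p = 0.00805). Kcnn1, a calcium-activated potassium channel, was at 0%, 2.19% and 7.05% and then 42.9%, 54.5% and 57.9% (adjusted p = 0.00359). Control and induced mice did not overlap at any of these channels, as at every long-only gene that rose. Kcnj6, an inward rectifier, did not pass with 0%, 13.6% and 0% against 57.1%, 28.6% and 63.5% (adjusted p = 0.0520), and passed without induced mouse 2, its lowest induced value (0.0127).

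Of 76 tested genes for neurotransmitter receptors and synapse 48 rose (63.2%, beside 23.2% of all tested genes), and of 7 long-only ones 2. Gria2, an AMPA glutamate receptor subunit, was at 7.35%, 0.42% and 0.38% in the control animals, then 62.1%, 51.7% and 69.9% in the induced ones (adjusted p = 0.00318). Sv2b, a synaptic vesicle protein, was at 0.03%, 11.9% and 9.19% and then 50.8%, 43.5% and 69.6% (adjusted p = 0.0177), and lost the call without any single control library (0.0633 to 0.0744). Syt13, a synaptotagmin, was at 0%, 0.12% and 0% and then 15.8%, 69.0% and 29.2%, an induced spread so wide that it did not pass (adjusted p = 0.191). G protein-coupled receptors of other kinds rose in 26 of 39 tested (66.7%) and 3 of 4 long-only genes. Gpr98, a very large adhesion receptor of sensory hair cells, was at 13.1%, 5.08% and 0.38% and then 70.4%, 79.9% and 78.3% (adjusted p = 0.00133). Lgr6, an R-spondin receptor known from epithelial stem cells, was at 7.14%, 6.30% and 3.25% and then 50.1%, 74.4% and 82.6% (adjusted p = 0.0115), with adjusted p of 0.0551 to 0.0580 without any control library. Gprc5a, an orphan receptor, was at 0% in all 6 libraries.

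Adhesion and axon guidance genes rose in 40 of 82 tested (48.8%, beside 23.2% of all tested genes) and 4 of 10 long-only genes. Ntm, the cell adhesion molecule neurotrimin, was at 16.7%, 0.20% and 7.41% in the control animals, then 54.4%, 66.4% and 71.9% in the induced ones (adjusted p = 0.00619). Cntnap5a, of the contactin-associated family, was at 0%, 2.26% and 2.55% and then 43.0%, 69.5% and 66.4% (adjusted p = 0.00963, and 0.0514 and 0.0501 without control mouse 1 or 2). Cntn2, a contactin of axons, was at 7.22%, 0.79% and 0% and then 26.2%, 61.4% and 59.1% (adjusted p = 0.0480). All 3 had separate groups, as did every long-only gene that rose. The call of Cntn2 held in just 1 of the 6 fits that left out a library, that without induced mouse 1 (0.00219, against 0.127 to 0.162 in the other 5).

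Matrix genes and proteases rose in 36 of 72 tested (50%, beside 23.2% of all tested genes) and 2 of 8 long-only genes. Adamts4, a protease that cuts aggrecan, started higher, at 21.9%, 33.1% and 35.9%, and reached 75.9%, 83.1% and 87.0% (adjusted p = 0.00367). Itga4, the integrin alpha 4 chain of leukocytes, was at 15.7%, 5.31% and 4.11% and then 35.5%, 59.0% and 69.3% (adjusted p = 0.0376), and held without 1 of 6 libraries, induced mouse 1 (0.00959, otherwise 0.0776 to 0.138). Col4a3 and Col4a4, 2 neighbouring type IV collagen chains with identical values in every library, were at 0% in each control mouse and 16.2%, 33.0% and 52.1% in the induced mice. They did not pass (adjusted p = 0.0857) except without induced mouse 1 (0.0260). Adam2, a sperm surface protein, was at 89.6% to 92.9% in control and 91.9% to 99.0% in induced mice and did not pass (adjusted p = 0.536).

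Few developmental transcription factors were long-only: 4 of the 218 tested, of which 2 rose, beside 160 of the 218 (73.4%, and 23.2% of all tested genes). Hoxc12, a posterior homeobox gene, was at 3.48%, 7.63% and 1.60% in the control animals, then 74.4%, 56.2% and 71.6% in the induced ones (adjusted p = 0.00283). Nr2e3, a nuclear receptor of photoreceptors, was at 37.5%, 23.4% and 28.4% and then 57.9%, 52.9% and 47.3% (adjusted p = 0.0342), a call that held in 1 of 6 fits without a library, that without control mouse 1 (0.0381, otherwise 0.0542 to 0.127). Hoxb8 was at 4.83%, 2.04% and 6.12% and then 7.16%, 59.8% and 46.1%. Its induced mouse 1 lay near the control mice, and it passed without that library (adjusted p = 0.00958) and not with it (0.246).

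Zinc finger genes of the Zfp and related families rose in 25 of 138 tested (18.1%, beside 23.2% of all tested genes) and 2 of 15 long-only genes. Zbtb8b (215627) was at 7.75%, 4.20% and 9.50% in the control animals, then 74.5%, 75.4% and 81.8% in the induced ones (adjusted p = 0.000439). Zfp583 was at 18.4%, 13.3% and 4.80% and then 71.8%, 77.6% and 88.7% (adjusted p = 0.00287). At these 2 genes the groups were far apart. Zfp354b (27274), whose window is printed above, was at 50.9%, 46.8% and 55% and then 63.8%, 57.9% and 61.6%, separate but not past the threshold (adjusted p = 0.0724). Ikzf4, a lymphoid zinc finger factor, overlapped between groups, at 88.9%, 51.1% and 88.2% against 98.9%, 91.4% and 85.9% (adjusted p = 0.531).

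Signalling kinases and related regulators rose in 45 of 175 tested (25.7%, near the 23.2% of all tested genes) and 5 of 14 long-only genes. Rgs8, a regulator of G protein signalling, was at 5.98%, 16.7% and 7.06% in the control animals, then 80.4%, 75.2% and 83.1% in the induced ones (adjusted p = 0.00104). Prkcq, protein kinase C theta of T cells, was at 1.45%, 3.32% and 5.46% and then 56.8%, 41.0% and 66.4% (adjusted p = 0.00978, and 0.0520 and 0.0512 without control mouse 1 or 2). Both had separate groups, as did every long-only gene that rose. Small GTPases and vesicle traffic rose in 18 of 152 tested (11.8%) and 3 of 12 long-only genes, and the rises were smaller. Arhgap24, a GTPase-activating protein for Rac, was at 0.17%, 0.04% and 1.44% and then 19.7%, 16.03% and 21.8% (adjusted p = 0.00282). Rab5c of early endosomes was at 12.2%, 9.91% and 22.4% and then 33.0%, 29.2% and 35.1% (adjusted p = 0.0418, held only without control mouse 3, at 0.0189, and otherwise 0.0847 to 0.148). Solute carriers and ABC transporters rose in 34 of 134 tested (25.4%, also near the 23.2% of all genes) and 1 of 7 long-only genes. That gene, Slc26a5, the motor protein prestin of outer hair cells, was at 1.28%, 0% and 3.90% and then 85.9%, 44.7% and 75.03% (adjusted p = 0.0192), and was called only without induced mouse 1 or 2 (otherwise 0.0685 to 0.0822). Slc25a34, a mitochondrial carrier, had 54.0%, 61.9% and 61.8% against 66.1%, 65.7% and 83.1% and did not pass (adjusted p = 0.283).

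Among genes known to gain methylation in human colorectal cancer, 38 of 47 tested (80.9%, beside 23.2% of all tested genes) and 4 of 5 long-only genes rose. Ndrg4, a marker used in stool DNA tests for human colorectal cancer, was at 2.68%, 0.53% and 0% and then 52.0%, 81.4% and 78.9% (adjusted p = 0.00783). Phactr3, a regulator of protein phosphatase 1 and actin, was at 10.8%, 33.4% and 2.37% and then 66.7%, 76.6% and 81.1% (adjusted p = 0.0154), and kept the call only without control mouse 2 or induced mouse 1 (otherwise 0.0521 to 0.0719). Itga4, described above, is on this list too. In Ndrg4, Phactr3 and Itga4 the lowest induced mouse was above the highest control mouse, as at every long-only gene that rose. Of 17 tested Wnt antagonists 10 rose (58.8%), and of 2 long-only ones 1. Frzb, a secreted protein that binds Wnt, was at 12.8%, 2.95% and 2.53% and then 42.7%, 68.4% and 73.9% (adjusted p = 0.0188), and 0.00409 without induced mouse 1, while the other 5 fits without a library gave values of up to 0.0826 and no call. Dkk2, a Wnt co-receptor inhibitor, was at 0%, 4.62% and 3.46% and then 30.7%, 51.4% and 83.4% and did not pass (adjusted p = 0.0757), except without induced mouse 1 (0.0337) or 3 (0.0464).

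**Figure D4:**
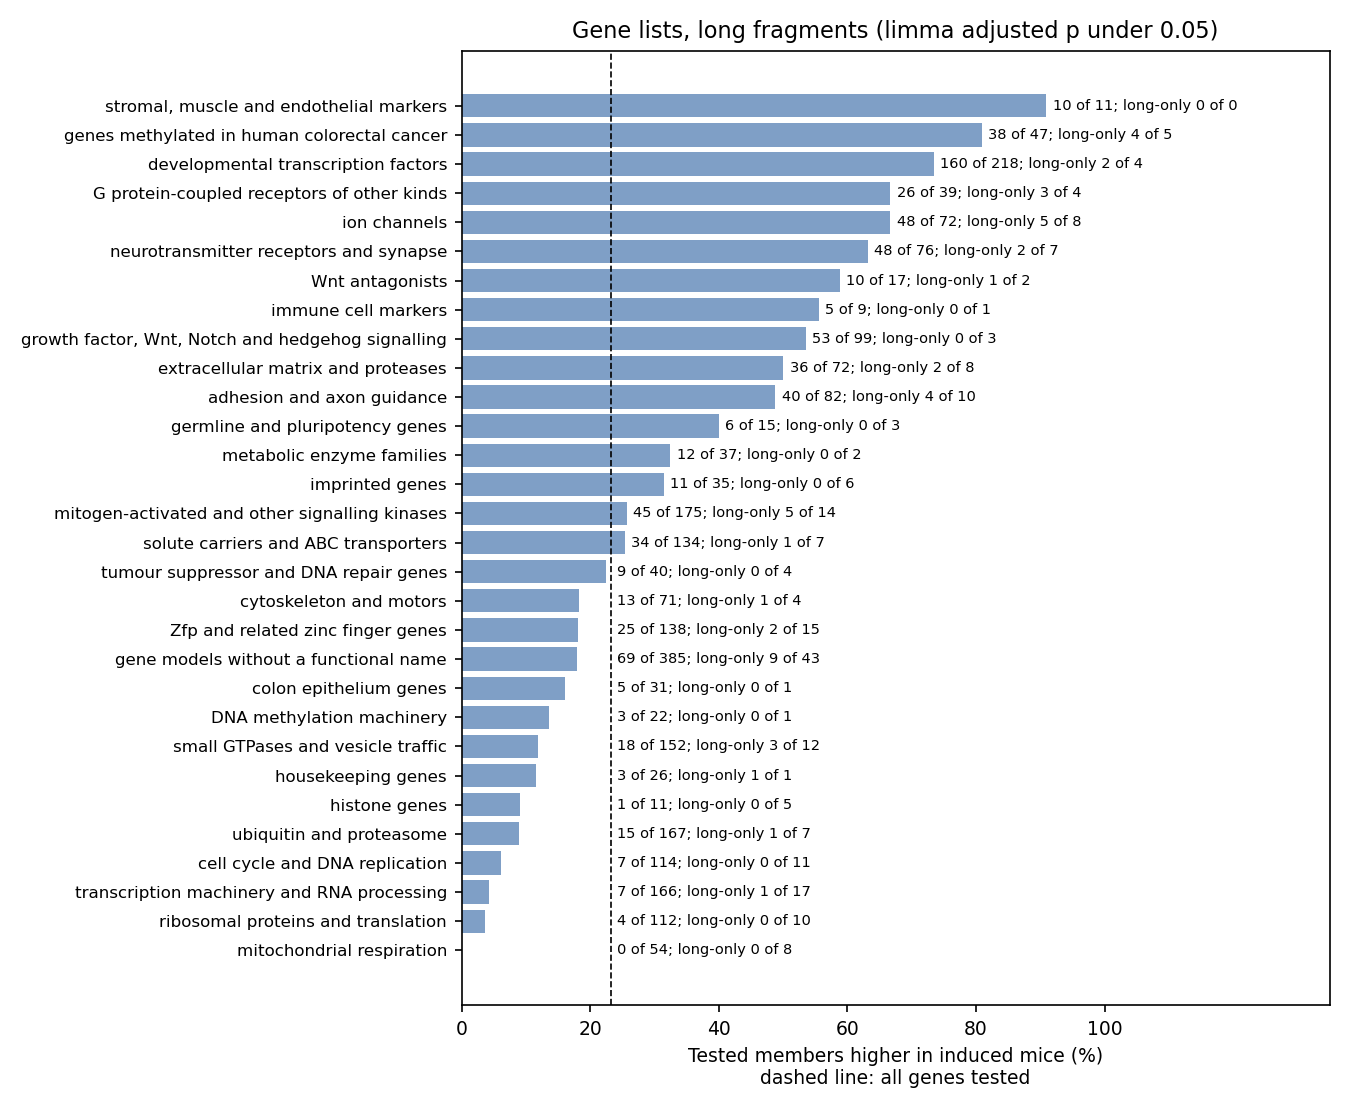
Share of the tested members of each gene list that rose (x axis, %; limma adjusted p under 0.05), with the count over all tested members and over long-only members beside each bar. The dashed line is the 23.2% of all tested genes that rose. Lists of channels, receptors, synapse and developmental transcription factors lie right of the line, and ribosomal, mitochondrial, RNA processing and cell cycle lists left of it.

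Few long-only genes of basic cell functions rose. Of 10 long-only ribosomal and translation genes 0 rose (4 of 112 tested), of 8 for mitochondrial respiration 0 (0 of 54), of 11 for cell cycle and DNA replication 0 (7 of 114) and of 17 for transcription machinery and RNA processing 1 (7 of 166). The shares over tested members were 3.57%, 0%, 6.14% and 4.22%, beside 23.2% of all tested genes. Long-only members had median control levels of 0%, 5.5%, 0.03% and 0.03% on these lists, and median induced levels of 0.71%, 8.22%, 0.24% and 0.12%. Not all were low: Kif2b, on the cell cycle list, had means of 87.1% in control and 90.9% in induced mice. Rps13, of the small ribosomal subunit, was at 0% in each control mouse and 0%, 8.44% and 2.22% in induced mice. Rpl6, of the large subunit, reached at most 2.95%. Taf12, a subunit of the general factor TFIID whose window is printed above, was at 0% in each control mouse and 0.56%, 1.51% and 1.20% in induced mice (adjusted p = 0.0528, and 0.00579 without induced mouse 1). Brca1, of DNA break repair, was at 0% in all 6 libraries, as were 26 other long-only genes, and 159 in all stayed under 1% in every library. How many reads stand behind a 0% is unknown.

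A few further members of such groups are given by their values. The promoter shared by Sfrs12ip1 and Sdccag10, splicing-related genes with identical values, was at 0.99%, 0% and 0% in the control animals, then 25%, 18.2% and 15.2% in the induced ones (adjusted p = 0.0110, and 0.0524 to 0.0560 without any control library). Tpi1, the glycolytic triosephosphate isomerase and the only long-only housekeeping gene on that list, was at 0.16%, 11.7% and 13.1% and then 31.5%, 42.2% and 45.1%. It rose (adjusted p = 0.0193), and held in 1 of the 6 fits without a library, that without induced mouse 1 (0.0213, otherwise 0.0548 to 0.0729). Ubb, a polyubiquitin gene, was at 0% in the control animals, then 23.5%, 3.76% and 54.9% in the induced ones and did not pass (adjusted p = 0.315). Mrps17, of mitochondrial ribosomes, had 0% to 10.5% in control and 10.97% to 18.1% in induced mice and did not pass (adjusted p = 0.265). Ndufs6, of respiratory complex I, overlapped between groups, at 0% to 11.1% and 5.44% to 14.8% (adjusted p = 0.536). Cox4i2, a tissue-restricted isoform of cytochrome oxidase, was at 70.1%, 31.9% and 31.2% and then 83.0%, 88.8% and 90.2% and did not pass with all libraries (adjusted p = 0.0834, and 0.00658 without control mouse 1).

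Some long-only genes rose from an intermediate control level. Mslnl, Gng13, Duox1 and Duoxa1, and H2-D1 and Thnsl2 further on, were chosen after their values were seen. Mslnl, a mesothelin-like gene, was at 33.3%, 30.5% and 33.1% in the control animals, then 70.3%, 64.9% and 74.4% in the induced ones (adjusted p = 0.00173). Gng13, a G protein gamma subunit of taste cells, was at 20.1%, 27.8% and 26.2% and then 72.4%, 65.2% and 65.7% (adjusted p = 0.00173). Both groups were tight and separate at these genes. Duox1, a dual oxidase that makes hydrogen peroxide at epithelial surfaces, and its neighbour Duoxa1, the factor that matures it, rose together. Duox1 was at 11.98%, 18.7% and 11.2% and then 82.7%, 57.1% and 75.8% (adjusted p = 0.00831), and Duoxa1 at 8.78%, 14.3% and 8.12% and then 71.3%, 52.5% and 65.2% (adjusted p = 0.00452). In both, induced mouse 2 was the lowest of the induced mice.

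The 5 long-only genes above 50% in control mice that still rose were Ptges, Rinl, Popdc2, Aspdh and Pf4. Ptges, prostaglandin E synthase, was at 77.8%, 80.3% and 75.01% in the control animals, then 90.3%, 93.2% and 100% in the induced ones (adjusted p = 0.0222). Rinl, a Ras and Rab interactor-like gene, was at 79.9%, 77.8% and 77.4% and then 90.3%, 93.2% and 97.1% (adjusted p = 0.00829). The rises of all 5 were 12.6 to 17.0 points. Rinl was the only one of the 5 called without each library in turn, while the other 4 lost the call in 4 or 5 of 6 such fits, Ptges with adjusted p of 0.0645 to 0.0888, Popdc2 of 0.0780 to 0.110, Aspdh of 0.0533 to 0.154 and Pf4 of 0.0720 to 0.164. At the other end, 9 long-only genes rose by under 10 points. H2-D1, a class I histocompatibility gene of a family with similar copies, was at 0%, 0.22% and 0.26% and then 5.22%, 6.12% and 7.25% (adjusted p = 0.00319). Thnsl2, a threonine synthase-like gene, was at 0%, 0% and 0.10% and then 8.10%, 7.17% and 8.77% (adjusted p = 0.00101).

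Germline genes are known for promoter methylation in somatic cells. Of 15 tested 6 rose (40%, beside 23.2% of all tested genes), while the 3 long-only ones were high in both groups and did not pass. Sycp2, of the synaptonemal complex of meiosis, was at 94.1%, 88.8% and 83.9% in the control animals, then 91.7%, 96.3% and 100% in the induced ones. Fkbp6, also needed in male meiosis, was at 94.9%, 85.1% and 85.8% and then 99.8%, 89.3% and 97.0%. Both overlapped between groups. Piwil2, of the piRNA pathway, was at 75.9%, 81.7% and 95.3% and then 97.4%, 96.3% and 95.8% (adjusted p = 0.246, and 0.0240 without control mouse 3). Outside that list, among the highest control means of long-only genes, D1Pas1, a testis helicase, was at 98.5%, 91.6% and 97.9% and then 94.8%, 98.1% and 99.6%, and Fat1, an atypical cadherin, at 97.3%, 91.9% and 96.6% and then 95.5%, 99.4% and 96.9%. In all, 17 long-only genes were above 80% in each of the 6 libraries.

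Imprinted genes can carry methylation on a single parental copy, so intermediate control levels are known for some of them. Of 35 tested 11 rose (31.4%, beside 23.2% of all tested genes), and of the 6 long-only ones 0. The median control level was 5.80% over the 35 tested genes and 54.0% over the 6 long-only ones. The promoter shared by Sgce and Peg10, silent on the maternal copy, was at 45.3%, 75.3% and 54.1% in the control animals, then 83.6%, 95.5% and 97.8% in the induced ones (adjusted p = 0.0743, and 0.0344 without control mouse 2). Nnat, expressed from the paternal copy, was at 35.5%, 66.4% and 47.3% and then 82.1%, 80.5% and 73.2% (adjusted p = 0.102, and 0.0336 without control mouse 2). At both the induced mice lay above all control mice. Zim1 was at 20%, 6.89% and 18.03% and then 19.03%, 50.99% and 63.7% (adjusted p = 0.241, and 0.0259 without induced mouse 1). Mcts2, an imprinted retrogene, went the other way without passing, from 76.8%, 87.3% and 63.1% to 48.8%, 55.7% and 65.7%, with overlap (adjusted p = 0.219). It was the only long-only gene whose mean was lower by over 10 points. All 3 induced values were below all control values at 1 long-only gene, Jmjd5, beside 0.277% of all tested genes, at 5.88%, 4.76% and 4% against 3.77%, 0.04% and 3.56% (adjusted p = 0.320).

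Some large differences did not pass. A rise of over 30 points was seen in 97 long-only genes, of which 74 passed and 23 did not, 7 of the 23 on the X chromosome. The median SD over the induced mice was 9.48 and 17.97 points. The test weighs a difference against the spread between mice, so a wider spread among genes that did not pass follows from the test. Mrc2, a collagen receptor of stromal cells, had the largest mean difference that did not pass, with 8.75%, 0.43% and 0.11% in the control animals, then 36.1%, 69.1% and 94.96% in the induced ones (adjusted p = 0.0606, and 0.0143 without induced mouse 1). Fam159b was at 0.10%, 0% and 1.20% and then 32.2%, 30.8% and 81.8% (adjusted p = 0.123, and 0.000492 without induced mouse 3). Faim2, a neuronal inhibitor of cell death, differed among the controls, at 5.46%, 53.1% and 49.1% and then 84.0%, 83.5% and 93.2% (adjusted p = 0.0842, and 0.0221 without control mouse 1). Ndn, an imprinted gene expressed in neurons, had the widest induced spread, at 28.3%, 53.7% and 62.1% and then 33.3%, 51.5% and 91.7%, and overlapped between groups (adjusted p = 0.749). Cd37, a leukocyte tetraspanin, was at 55.4%, 64.3% and 57.7% and then 74.1%, 92.3% and 74.5% (adjusted p = 0.0888).

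The induced mice did not take the same rank everywhere. Among the 107 long-only genes that rose, induced mouse 3 was the highest of the induced mice in 53, mouse 1 in 37 and mouse 2 in 17. The median level of these genes was 58.1%, 60.2% and 69.9% in induced mice 1, 2 and 3, and 3.48%, 4.47% and 5.06% in control mice 1, 2 and 3. Above 50% were 65, 71 and 76 of them in induced mice 1, 2 and 3. Over all 1421 tested genes that rose, induced mouse 3 was the highest in 847 and mouse 1 the lowest in 685. Leaving out each library in turn kept 47 of the 107 long-only calls in all 6 fits, among them Ptger1, Tnfrsf8, Nkain2, Ctgf, Mcf2l, Nova2, Gria2, Zbtb8b, Rgs8 and Duox1. Called long-only genes numbered 57, 57 and 58 without control mouse 1, 2 or 3, and 105, 80 and 86 without induced mouse 1, 2 or 3. The model fits a single variance per gene to both groups. The median SD of the 107 genes was 2.75 points over control and 7.88 points over induced mice. How this unequal spread bears on the counts was not tested.

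X-linked promoters formed 21 of the long-only genes, and 3 of them rose. In female cells an X chromosome is silenced, with methylation of many of its promoters. Control mouse 2 was the lowest of the 3 control mice in 18 of the 21 genes, beside 75 of the 473 long-only genes not on X, and at 0% in 13. The 3 genes that rose were Tro, Wdr40c and Dach2. Tro, the adhesion protein trophinin, was at 30.3%, 0% and 49.9% in the control animals, then 87.5%, 95.3% and 94.4% in the induced ones (adjusted p = 0.0343). Wdr40c, a WD repeat gene, was at 47.9%, 28.4% and 23.1% and then 82.3%, 100% and 84.1% (adjusted p = 0.0146). Dach2, a transcriptional cofactor, was at 0%, 14.2% and 36.1% and then 63.1%, 65.3% and 79.4% (adjusted p = 0.0338). The groups did not overlap at these 3 genes, as at every long-only gene that rose. Without control mouse 2 Tro kept its call, and Wdr40c (adjusted p = 0.0688) and Dach2 lost theirs. Tro was called only without control mouse 2 or 3 (otherwise 0.0858 to 0.113). Wdr40c also lost the call without control mouse 3 (0.0580). Dach2 lost it in 5 of 6 fits (0.0762 to 0.124) and was called only without control mouse 3 (0.0275).

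The median difference over the 21 X-linked long-only genes was 28.8 points with all libraries and 19.3 points without control mouse 2, in which 2 genes were called. Rlim, a ubiquitin ligase of X inactivation, was at 37.3%, 0% and 42.6% and then 35.9%, 51.7% and 24.5%, a mean difference of 10.7 points that was -2.63 points without control mouse 2. Htr2c, a serotonin receptor, was at 67.1%, 21.5% and 53.9% and then 87.2%, 81.4% and 93.8% (adjusted p = 0.122). Mageh1 was at 24.2%, 0% and 36.0% and then 53.2%, 86.4% and 67.6% (adjusted p = 0.0746). At Htr2c and Mageh1 the groups were separate, and at Rlim they overlapped. Without control mouse 2 the mean difference went from 40.0 to 27.0 points at Htr2c and from 49.0 to 39.0 points at Mageh1. With X-linked genes left out before the fit 107 long-only genes rose as well, and 104 of these had also risen with all genes. Without X-linked genes the mean of long-only genes was 13.1%, 14.2% and 14.04% in the control animals, then 26.6%, 27.1% and 29.3% in the induced ones.

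**Figure D5:**
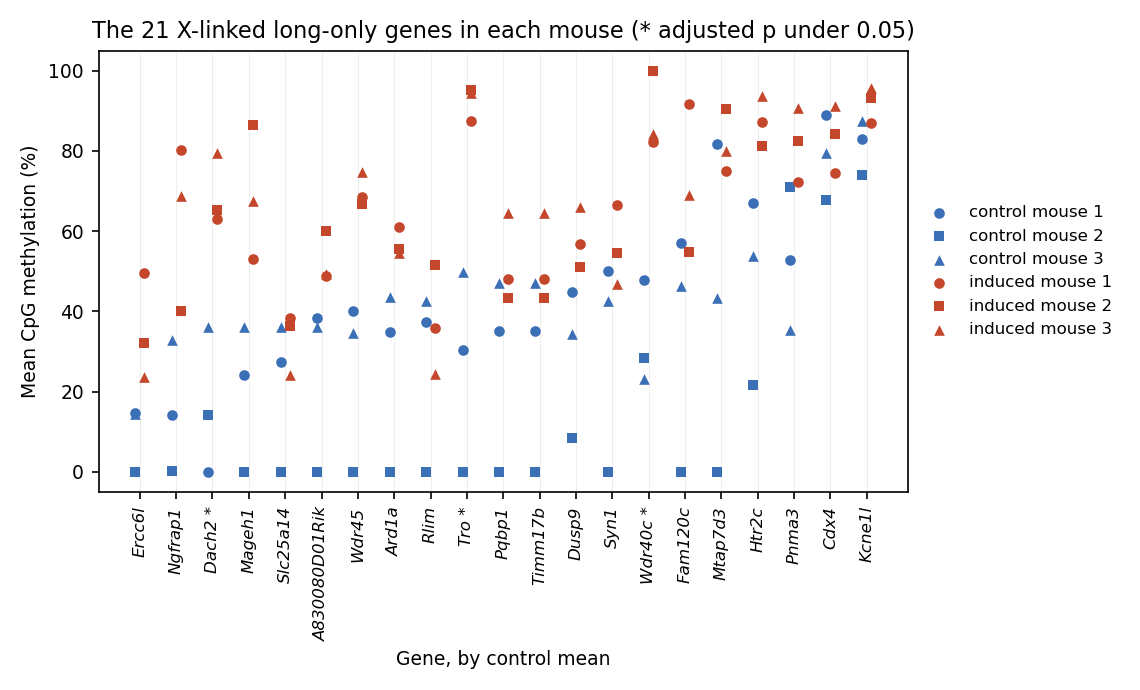
Mean CpG methylation (y axis, %) of the 21 X-linked long-only genes, ordered by control mean, in each control (blue) and induced (red) mouse, with * for the 3 genes that rose. Control mouse 2 (blue squares) is at 0% for 13 of them.

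For the 5309 genes listed in all 12 tables, the change in long fragments could be tested against the change in short fragments of the same mice, with mouse as a random block. It differed at 250 genes (4.71%; limma interaction, adjusted p under 0.05). The 5 genes with the smallest p were not long-only and show promoters whose long fragments changed unlike their short ones. Smu1, a spliceosome protein, was at 0% in each control mouse and 14.4%, 14.3% and 14.3% in induced mice in long fragments, and at 0% in all 6 short-fragment libraries (adjusted p of the difference 5.18e-12). Fbxl11, a histone demethylase that binds unmethylated CpG sites, was at most at 0.22% in every long-fragment library and went from 3.85%, 2% and 3.54% to 28.1%, 26.5% and 28.6% in short fragments (adjusted p of the difference 1.51e-06). Gadd45a, a stress-induced growth arrest gene, was at most at 0.52% in long fragments and went from at most 0.03% to 12.4%, 14.5% and 13.6% in short ones (adjusted p of the difference 8.93e-06). Bcl6, a transcriptional repressor, went from at most 0.16% to 5.31%, 5.15% and 5.59% in long and from 0.13% to 0.39% to 1.18%, 1.44% and 1.43% in short fragments. In 1700025G04Rik the induced values were 1.15%, 0.20% and 0.70% in long and 8.57%, 9.48% and 8.95% in short fragments. The adjusted p of the difference was 8.93e-06 for these 2 genes. The 5 genes were picked by smallest p, which favours a small spread between mice. Any closeness of the induced values at them follows from that choice.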

How the data were processed

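For each library the authors deposited a table of methylation fractions (0 to 1), averaged over CpG sites for every gene and promoter accession, per the file headers, from reduced representation bisulfite sequencing of size-selected MspI fragments, per the labels' protocols. No source used here gives the aligner, genome build, promoter window or coverage filter, and the deposited fractions come without read counts, so counting error has no interval. Fractions were multiplied to percent. Genes in all 6 long-fragment tables were compared with limma 3.58.1 (lmFit, eBayes; R 4.3.3) and Benjamini-Hochberg adjustment over 6127 genes, threshold 0.05. The difference between fragment sizes was fitted over 5309 genes over the 12 libraries, blocking on mouse by duplicateCorrelation (0.0674). Libraries shared at most 1.12% of values above 0, and each was counted as a replicate; the mice are separate animals. Of the long-only genes 62 share all 6 values with a tested neighbour within 10 kb (RefSeq GRCm38.p6), as shared promoters give, and were counted separately. Long-only genes had no further filter.

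Named genes were, among long-only genes, the 12 largest rises, falls, the 5 highest control means, the 4 largest SDs over induced mice, the 5 largest differences short of the threshold and at most 4 members of a gene list, with the 5 smallest interaction p; some are not reported here. Lists hold symbols from general knowledge, and patterns of symbols. Members and lists were chosen with earlier results of these data known. Alternatives were another scale, moderation, gene filter, replicate block, merged identical profiles, no X and Y genes, a minimum of 10 points and each library left out.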

Additional observations from a re-analysis of the deposited data

Results flagged for a closer look

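By the limma interaction test, 250 of 5309 genes (4.71%) changed differently in long and short fragments of the same mice. Of these, 5 are described here. The change in long minus the change in short fragments was 14.3 points for Smu1, 4.21 points for Bcl6, -24.6 points for Fbxl11, -13.3 points for Gadd45a and -8.31 points for 1700025G04Rik. For Smu1 and Bcl6 the long fragments changed more, and for Fbxl11, Gadd45a and 1700025G04Rik the short ones. These were the genes with the smallest interaction p among 5309, chosen for that, so their sizes are a description. With 3 mice a group, no single sample was tested for standing apart.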

How the results depend on the processing

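The main fit took the replicate numbers as names of the mice, without pairing. Deviations of same-numbered control and induced mice correlated at 0.001, 0.0366 and 0.0247, and those of differently numbered mice at -0.0311 to 0.0145. A factor shared by same-numbered mice was not tested. With the replicate number as a block 651 genes rose, 33 of them long-only. Leaving out each library in turn gave 882 to 1527 genes that rose, 57 to 105 long-only, and 0 to 5 that fell; the fewest rises came without a control library. The arcsine scale gave 2 falls. Counting as long-only every gene missing from at least 1 short table gave 165 rises and 1 fall of 818. The interaction count was 131, 125 and 158 without control mouse 1, 2 or 3 and 441, 392 and 420 without induced mouse 1, 2 or 3. Other settings kept the long-only rises within 1.5 times. Of 55 named genes that rose, 23 kept the call in every alternative and 0 reversed. Differences that did not pass turned negative for Krt8 without induced mouse 1, D1Pas1 and Rlim without control mouse 2, and Ndn and Gadd45a without induced mouse 3; the cause was not tested. Over the left-out libraries Krt8 ranged from -0.04 to 1.89 points, D1Pas1 from -0.655 to 2.88, Rlim from -2.63 to 18.7, Ndn from -5.603 to 23.6 and Gadd45a from -0.0133 to 0.247. Read depth is unknown, so levels at or near 0% cannot be bounded.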
